A study of Mus musculus with 120 samples.

Results

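A set of 10 genes that define adipocytes or encode their secreted hormones was followed through 120 bulk RNA-seq libraries of the immunological niche (IN), a microporous polycaprolactone scaffold placed under the skin of the back of mice and filled by host cells. The members are Adipoq, Lep, Retn, Cfd, Plin1, Cidec, Lipe, Pnpla2, Pparg and Tnmd, taken by gene symbol from both deposited count tables, and they are 10 of 55487 genes shared by the tables. The study compared 23 INs of NOR/LtJ mice (NOR, 5 mice), a strain that does not develop autoimmune diabetes, with INs of NOD/ShiLtJ mice (NOD) that stayed normoglycemic (nonprogressors, NP, 39 INs) or developed diabetes (progressors, P, 58 INs of 10 mice). All mice carried several scaffolds, the labels name no other treatment, and an explanted scaffold was replaced by a new one, so INs of a mouse at different times are different implants. NOR and NP INs were explanted from mice 6, 10, 14, 18 or 22 weeks old. P INs were taken at 6 weeks of age, then at 7, 5, 3 and 1 weeks before onset of hyperglycemia and at onset, so P and NP ages after 6 weeks are not matched one to one. A further 6 NP INs are labelled only by 31, 38 or 108 days after implantation, carry mouse numbers that the labels do not tie to the mice with age labels, and entered none of the fitted comparisons.

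Libraries were sequenced in 2 batches, 74 in batch 1 and 46 in batch 2, on different NovaSeq models. NOR was in batch 1 only. NP mice 1 to 4 and P mice 1 to 5 were in batch 1 and NP mice 5 to 11 and P mice 6 to 10 in batch 2, except that all 8 INs taken 7 weeks before onset, those of P mice 1 to 4 included, were in batch 2. Batch and mouse therefore cannot be told apart, and levels are given within a batch. Total counts ran from 4722396 to 56185434 in batch 1 and from 29029239 to 43880986 in batch 2. Levels are CPM, counts scaled to the total of the library, after TMM scaling, which adjusts for differences in composition between libraries. The library of lowest depth was that of NP mouse 3 at 18 weeks, and the library of NOR mouse 5 at 18 weeks had 85.7% of its counts on 1 ribosomal RNA gene. In NP mice 1 to 4 at 22 weeks, the gene Rn7s2 held 12.8, 19.2, 24.3 and 30.5% of the counts. At 6 weeks the top gene of the same mice held 2.08 to 4.43%. Macrophage markers summed to between 3055 and 10420 CPM and fibroblast markers to between 4795 and 67087 CPM, so each library held the RNA of both. The highest fibroblast sum was in NOR INs at 18 weeks, the group with the ribosomal RNA library, whose TMM factor was 0.120.

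White adipocytes store triglyceride in a single large lipid droplet and release hormones called adipokines into the blood. Their identity is set by PPARγ (Pparg), the nuclear receptor that drives adipocyte differentiation and is also expressed by macrophages. Adiponectin (Adipoq), leptin (Lep), resistin (Retn) and adipsin (Cfd, complement factor D) are the secreted products. Perilipin 1 (Plin1) coats the lipid droplet and restrains lipolysis, and Cidec helps droplets fuse and grow. Adipose triglyceride lipase (Pnpla2) removes the first fatty acid of triglyceride and hormone-sensitive lipase (Lipe) the next. Tenomodulin (Tnmd) is a transmembrane glycoprotein known from tendon that adipose stromal cells also make.

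The sequences upstream of 4 members are shown first, because Adipoq, Lep and Plin1 varied together across INs while Tnmd did not follow them. They are RefSeq sequences of GRCm38.p6, written 5′ to 3′ on the strand of the gene and ending at the base before the first annotated transcript base. Capitals mark matches to 7 motifs searched on both strands: the TATA box (TATAAA), the CCAAT box (CCAAT), a C/EBP site (TTGCNNAA), the nuclear receptor element (AGGTCA), its direct repeat with 1 base between the copies, the E-box (CACGTG) and the GC box (GGGCGG). The direct repeat holds the single element within it.
Adipoq, chr16:23146286-23146535, plus strand: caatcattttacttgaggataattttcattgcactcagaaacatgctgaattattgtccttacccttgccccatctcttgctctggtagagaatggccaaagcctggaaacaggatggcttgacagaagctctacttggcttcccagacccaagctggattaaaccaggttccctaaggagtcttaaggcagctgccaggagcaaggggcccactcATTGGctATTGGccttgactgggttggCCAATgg
Lep, chr6:29059971-29060219, plus strand: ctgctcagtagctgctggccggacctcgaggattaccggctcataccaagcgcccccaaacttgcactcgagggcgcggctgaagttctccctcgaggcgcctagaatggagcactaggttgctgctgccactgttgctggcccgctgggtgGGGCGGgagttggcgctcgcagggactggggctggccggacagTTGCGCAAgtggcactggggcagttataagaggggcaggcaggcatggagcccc
Plin1, chr7:79732904-79733026, minus strand: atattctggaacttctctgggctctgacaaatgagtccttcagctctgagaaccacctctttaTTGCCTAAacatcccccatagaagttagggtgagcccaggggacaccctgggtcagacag
Tnmd, chrX:133850758-133850979, plus strand: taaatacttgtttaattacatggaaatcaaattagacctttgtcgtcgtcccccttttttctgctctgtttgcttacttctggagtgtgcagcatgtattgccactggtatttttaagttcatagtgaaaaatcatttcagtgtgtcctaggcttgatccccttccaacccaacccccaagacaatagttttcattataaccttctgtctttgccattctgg
The windows are 250, 249, 123 and 222 bases long, those of Plin1 and Tnmd being shorter because another annotated transcript begins further upstream. The Adipoq window held 3 CCAAT boxes, beginning 34, 27 and 7 bases before the start site (positions -34, -27 and -7). The Lep window held a GC box and, nearer to the start site, a C/EBP match. The Plin1 window printed here held 1 C/EBP match. The Tnmd window held none of the 7 motifs. The 250-base windows of Retn and Cfd, which did vary with Adipoq and are not printed, also held 0 matches. So did a window of Cidec, whose other window held 1 C/EBP match. A lack of matches was therefore not particular to Tnmd. Among the 250 bases upstream of 32851 annotated starts, a CCAAT box was found in 33.9%, a GC box in 32.7%, a nuclear receptor element in 14.0%, a TATA box in 12.4%, a C/EBP match in 9.56%, an E-box in 6.02% and the direct repeat in 0.0335%. These matches describe letters only and no binding was measured.

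Every member was detected, but at levels that differed widely between INs. Adipoq (ENSMUSG00000022878, chr16:23146536-23158028, plus strand) ran from 0 to 126 CPM in batch 1 with a median of 5.68 CPM, and from 0.0848 to 176 CPM in batch 2 with a median of 6.42 CPM. It was under 1 CPM in 15 of 74 and 8 of 46 libraries and at least 10 CPM in 32 and 20 of them. The single library without a count of Adipoq was that of NOR mouse 5 at 18 weeks. Per kilobase of exon, the median level was highest for Cfd (chr10:79890853-79892655), at 51.9 CPM per kb in batch 1 and 37.3 CPM per kb in batch 2, followed by Pnpla2 (chr7:141455198-141460743), at 34.8 and 27.2 CPM per kb. Pparg (chr6:115360951-115490399) had a median of 8.39 and 11.4 CPM per kb. Cidec (chr6:113424634-113435760), Adipoq and Lipe (chr7:25379527-25398710) lay between 3.12 and 4.65 CPM per kb, and Plin1 (chr7:79720218-79732903) and Retn (chr8:3655770-3660110) between 1.61 and 2.94 CPM per kb. Lep (chr6:29060220-29073877) and Tnmd (chrX:133850980-133865577) were lowest, at 0.641 and 0.367 CPM per kb in batch 1 and 0.385 and 0.632 CPM per kb in batch 2. The spread differed as much as the level: Pparg varied from 4.84 to 41.2 CPM in batch 1 and from 15.1 to 59.8 CPM in batch 2, while Cfd varied from 1.78 to 880 CPM and from 0.171 to 1130 CPM. The Pparg value of 4.84 CPM was that of NOR mouse 5 at 18 weeks, from 5 counts.

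**Figure D1:**
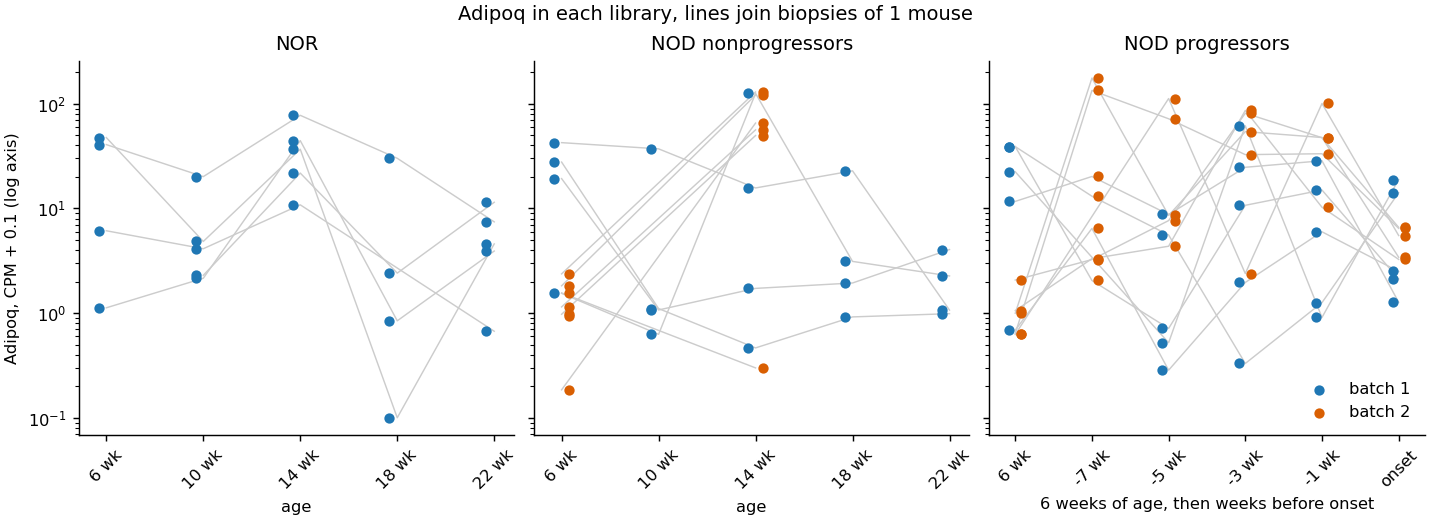
Adipoq in each IN library labelled by age or by time before onset, as CPM plus 0.1 on a log axis, in panels for NOR, NP and P. The 6 NP INs labelled only by days after implantation are not shown. Points are libraries coloured by sequencing batch, and grey lines join biopsies of 1 mouse. At 6 weeks the batch 2 libraries sit at or under 2.27 CPM, whereas most batch 1 libraries of NOD mice are above 10 CPM, and at 3 weeks before onset the INs of different P mice range from 0.230 to 86.3 CPM.

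Most members varied with Adipoq from library to library. The correlation of log2 CPM with Adipoq over the 74 batch 1 libraries was 0.989 for Retn, 0.986 for Plin1, 0.970 for Cfd, 0.957 for Lep, 0.928 for Cidec and 0.882 for Lipe. Over the 46 batch 2 libraries it was 0.986 for Retn, 0.990 for Plin1, 0.978 for Cfd, 0.961 for Lep, 0.986 for Cidec and 0.943 for Lipe. Without the 2 libraries farthest from the median of Adipoq, the batch 1 values of Cidec and Lipe were 0.985 and 0.954. Pnpla2, which many cell types express, was looser at 0.734 and 0.895, and Pparg looser still at 0.432 and 0.666. Tnmd did not share the pattern, with 0.10 in batch 1 and −0.544 in batch 2. Pparg was closest to Pnpla2, at 0.776 in batch 1 and 0.828 in batch 2. These correlations are descriptions, because the libraries include repeated biopsies of a mouse and share group and depth. In a bulk library, fewer adipocytes and less of these RNAs per adipocyte cannot be told apart.

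**Figure D2:**
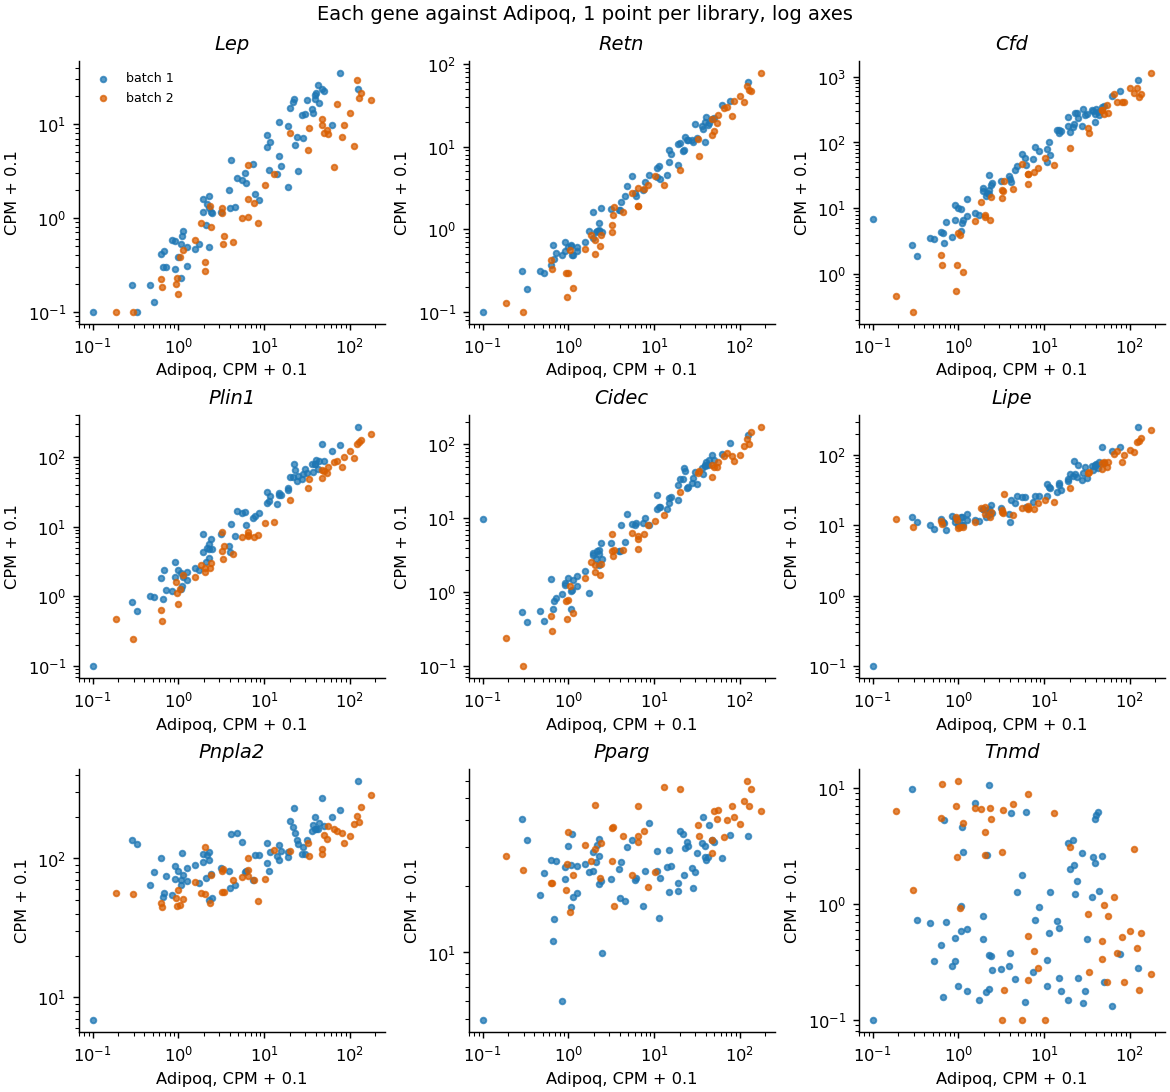
CPM of each of the other 9 members against CPM of Adipoq, both on log axes, each point being 1 library coloured by batch. Retn, Plin1, Cfd, Lep and Cidec lie along a narrow diagonal in both batches, Pparg and Pnpla2 flatten at low Adipoq, and Tnmd does not follow it.

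Over 21162 genes compared with Adipoq, and with the members left out, the 5 whose pattern was most like it by the lower of the correlations in the 2 batches were Pck1 (0.977 and 0.978), Acvr1c (0.971 and 0.980), Ces1d (0.978 and 0.970), Ankef1 (0.964 and 0.970) and Slc7a10 (0.958 and 0.982). Pck1 encodes the phosphoenolpyruvate carboxykinase that supplies glycerol backbones for triglyceride in fat, Acvr1c the activin receptor ALK7, Ces1d a carboxylesterase with triglyceride hydrolase activity and Slc7a10 a neutral amino acid transporter.

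At 6 weeks the adipocyte genes were high in most batch 1 INs and low in every batch 2 IN of NOD mice. In batch 1, Adipoq was 27.6, 1.45, 42.4 and 19.2 CPM in NP mice 1 to 4 and 38.9, 0.588, 38.9, 11.6 and 22.3 CPM in P mice 1 to 5. In batch 2 it was 1.46, 0.0848, 1.72, 2.27, 0.874, 1.05 and 0.835 CPM in NP mice 5 to 11 and 1.97, 0.896, 0.525, 0.956 and 0.538 CPM in P mice 6 to 10. Only NP mouse 2 and P mouse 2 in batch 1 reached down to the batch 2 range. Median Cfd was 180 CPM over the 9 batch 1 libraries and 2.86 CPM over the 12 batch 2 libraries, and median Plin1 was 49.1 and 1.35 CPM. Median Lep was 12.5 CPM and 0.186 CPM. Pparg hardly shared this gap, at 14.0 to 30.4 CPM in batch 1 and 15.1 to 35.2 CPM in batch 2, nor did Tnmd, with medians of 3.24 and 6.32 CPM. The skeletal muscle marker sum (6 genes) moved the same way, with a median of 3235 CPM in batch 1 (5.13 to 20197 CPM) and 26.9 CPM in batch 2 (2.61 to 432 CPM), and its part in the gap was not tested. No test of batch was made at this age, since batch and mouse cannot be told apart.

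Within these 6-week INs, P and NP mice, compared before any of them was diabetic, showed no called difference in any member. With batch as a term, edgeR's quasi-likelihood test called 0 of the 10 members and 0% of the 19082 genes tested after Benjamini-Hochberg adjustment (985 genes at an unadjusted p under 0.05; DESeq2 also called 0). Differences ranged from −0.43 (SE 0.68) for Lep to 0.13 (SE 0.18) for Pnpla2 on the log2 scale, and Adipoq differed by −0.13 (SE 0.55, adjusted p = 0.986).

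In NP mice, the later INs (10 to 22 weeks) were tested against the 6-week INs with both batches fitted together, and 9 of 10 members did not pass. Fitted within a batch, the fold changes of 8 of these had opposite signs in the 2 batches. These signs compare unlike ages, since batch 1 averages 10, 14, 18 and 22 weeks and batch 2 has only 14 weeks. Tnmd fell by 2.95 on the log2 scale (SE 0.39, adjusted p = 1.1e-05, edgeR), and it was the 1 member called against 24.1% of the 21138 genes tested. Adipoq differed by 0.00 (SE 0.78, adjusted p = 1), Cfd by 0.52 (SE 0.92) and Lep by −0.78 (SE 0.84). In the joint fit, 10, 18 and 22 weeks came from batch 1 only, and batch 2 entered at 6 and 14 weeks. The joint value is therefore not a plain mean of the changes within each batch.

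In batch 1, Adipoq of NP mice 1 to 4 was 1.00, 0.527, 37.0 and 0.971 CPM at 10 weeks, 0.365, 126, 15.6 and 1.62 CPM at 14 weeks, 0.819, 3.02, 22.8 and 1.84 CPM at 18 weeks and 0.887, 2.16, 0.968 and 3.95 CPM at 22 weeks. The 6-week and later groups overlapped, since mouse 3 stayed at 15.6 CPM or more until 18 weeks and mouse 2 reached 126 CPM at 14 weeks. Lep was 12.5, 0.368, 25.7 and 9.38 CPM at 6 weeks and 0.285, 1.17, 0.424 and 1.18 CPM at 22 weeks in the same mice. The 22-week libraries are those with a large share of counts on Rn7s2, whose part in these levels was not tested. Fitted within batch 1, 9 members had negative fold changes at later ages and Pparg a fold change of 0.12, and only Tnmd was called (−3.38, SE 0.49, adjusted p = 0.00117), against 13.8% of 19715 genes. Lep (−2.31, SE 0.99, adjusted p = 0.128) and Adipoq (−1.48, SE 1.07, adjusted p = 0.369) did not pass the test, although Lep did without NP mouse 2 (−3.26, adjusted p = 0.0385).

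In batch 2, where NP mice were biopsied at 6 and 14 weeks, 9 members rose and Tnmd fell, so that 10 of 10 were called against 34.1% of 19665 genes. At 14 weeks Adipoq was 0.199, 65.3, 121, 129, 49.6 and 56.2 CPM in the 6 mice, all but 1 above every 6-week library of the batch. Its change was 5.91 (SE 0.87, adjusted p = 0.000392, edgeR). Retn changed by 6.58 (SE 0.97), Cfd by 6.55 (SE 1.17), Cidec by 6.05 (SE 0.95), Plin1 by 5.75 (SE 0.86) and Lep by 4.69 (SE 0.97). The lipases changed less, Lipe by 2.98 (SE 0.44) and Pnpla2 by 1.52 (SE 0.22), and Pparg least, by 0.77 (SE 0.17, adjusted p = 0.00425). Cfd illustrates the size of the step, from a median of 1.31 CPM at 6 weeks to 389 CPM at 14 weeks. The 14-week IN of NP mouse 5 was the exception, with 0 counts of Lep, Retn and Cidec and with Cfd at 0.171 CPM, while its Pparg of 23.6 CPM lay within the 6-week range. All 6 muscle markers rose in the same comparison (median 4.50 on the log2 scale), the muscle sum going from 2.61 to 432 CPM to 9.46 to 5908 CPM, and the mammary epithelium sum (6 genes) went from a median of 0.450 CPM over the NOD 6-week libraries of this batch to 108 CPM (1.05 to 182 CPM). The part of these tissues in the result was not tested. The difference between the batches in the change from 6 to 14 weeks was 5.23 for Adipoq (SE 1.78, adjusted p = 0.111) and was called for 0 of 10 members, against 1.94% of 21138 genes.

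In P mice the fold changes again had opposite signs in the batches for most members. With both batches fitted together, the INs from 5 weeks before onset to onset differed from those at 6 weeks only in Tnmd among the members (−3.04, SE 0.49, adjusted p = 2.1e-06), against 39.5% of 21279 genes. Adipoq differed by 0.22 (SE 0.86), Cfd by 0.83 (SE 0.92) and Lep by −1.07 (SE 0.78, adjusted p = 0.282).

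In batch 1, Adipoq of P mice 1 to 5 was 5.47, 0.185, 0.614, 8.65 and 0.421 CPM at 5 weeks before onset, 0.230, 1.86, 10.6, 24.6 and 61.4 CPM at 3 weeks, 1.16, 5.88, 14.9, 28.4 and 0.809 CPM at 1 week and 14.0, 2.40, 2.02, 1.17 and 18.8 CPM at onset. These values overlapped those at 6 weeks. Lep was 20.2, 0.340, 18.5, 6.29 and 18.5 CPM at 6 weeks and 2.86, 1.02, 0.747, 0.210 and 2.02 CPM at onset, below its 6-week value in 4 of 5 mice. Lep fell by 2.62 (SE 0.75, adjusted p = 0.0141) and Tnmd by 2.68 (SE 0.59, adjusted p = 0.00294), 2 of 10 members called against 27.1% of 19596 genes, and without P mouse 3 Lep no longer passed (−2.55, adjusted p = 0.0657). Adipoq (−1.43, SE 0.86), Plin1 (−1.69, SE 0.83) and Cidec (−1.83, SE 0.83) did not pass.

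In batch 2, Adipoq of P mice 6 to 10 was 7.56, 8.48, 112, 4.25 and 71.8 CPM at 5 weeks before onset, 81.1, 54.1, 2.29, 86.3 and 32.6 CPM at 3 weeks, 47.3, 47.5, 101, 10.2 and 33.2 CPM at 1 week and 6.49, 3.31, 5.41, 3.16 and 6.35 CPM at onset. The 20 later libraries were all above the 5 libraries at 6 weeks, whose highest value was 1.97 CPM. Adipoq rose by 4.75 (SE 1.16, adjusted p = 0.00231), Cfd by 5.39 (SE 1.24), Plin1 by 4.91 (SE 1.19), Cidec by 4.88 (SE 1.17), Retn by 4.71 (SE 1.23) and Lep by 4.64 (SE 1.06, adjusted p = 0.00126). Lipe rose by 2.09 (SE 0.66) and Pnpla2 by 0.97 (SE 0.27). Tnmd fell by 3.53 (SE 0.72, adjusted p = 0.000375), and Pparg differed by 0.42 (SE 0.18, adjusted p = 0.0641), so 9 of 10 members were called against 31.2% of 21377 genes. In P INs of this batch the mammary epithelium sum was 0.476 to 2.29 CPM at 6 weeks and 1.18 to 142 CPM at 5 to 1 weeks before onset. It was 14.0 to 27.4 CPM at onset, and 4 of 5 tested genes were higher in this fit. The muscle sum was 12.7 to 145 CPM, 14.5 to 1781 CPM and 11.3 to 217 CPM at the same times, with 0 of 6 genes called. The part of these tissues in the result was not tested. A fit with time and batch crossed gave a called difference between the batches for 8 of 10 members, against 4.61% of 21968 genes. It was 7.26 for Lep (SE 1.42, adjusted p = 0.00594), 6.20 for Adipoq (SE 1.48, adjusted p = 0.0146) and 1.56 for Pnpla2 (adjusted p = 0.0110), and it did not pass for Pparg (0.34, adjusted p = 0.442) or Tnmd (−0.84, adjusted p = 0.704).

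**Figure D3:**
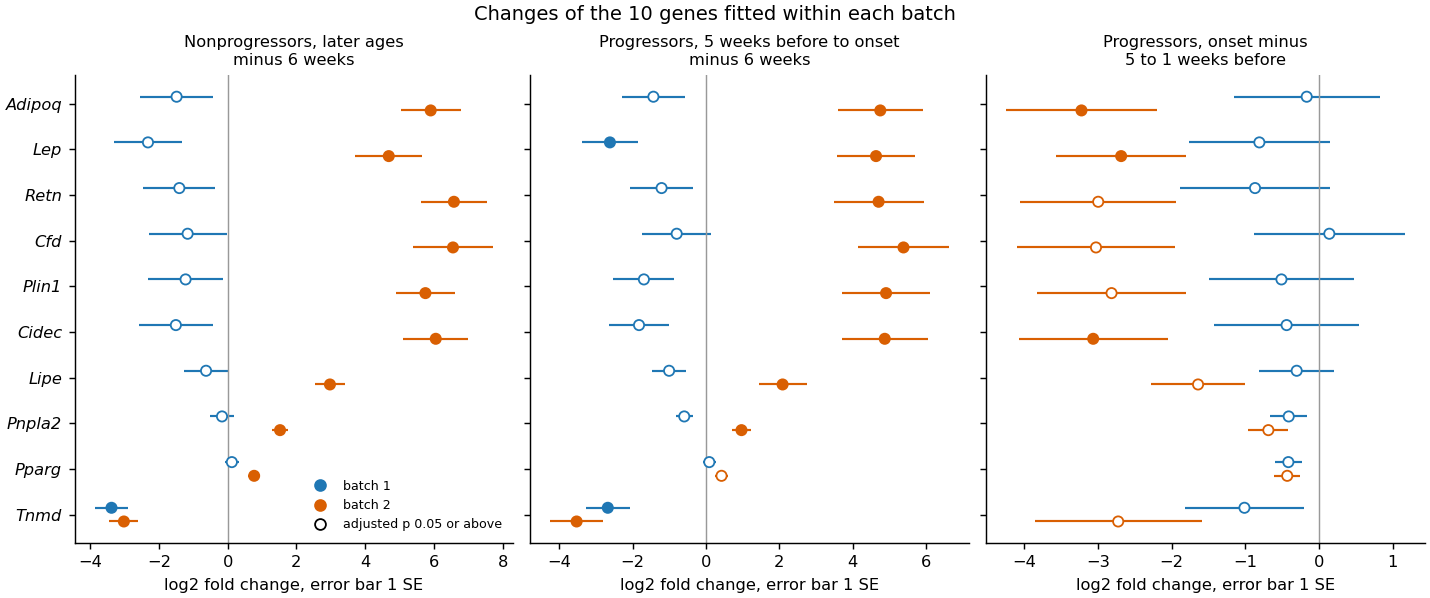
Log2 fold change with 1 standard error for the 10 members, fitted within each batch, for later NP ages against 6 weeks, P from 5 weeks before onset to onset against 6 weeks, and P at onset against 5 to 1 weeks before. The later NP ages are 10 to 22 weeks in batch 1 and only 14 weeks in batch 2. Filled points passed an adjusted p of 0.05 (edgeR). Adipoq is at −1.48 and 5.91 in NP mice of batch 1 and batch 2 and at −1.43 and 4.75 in P mice, while Tnmd lies between −2.68 and −3.53 in all 4 fits.

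The 8 INs taken 7 weeks before onset, all sequenced in batch 2, had Adipoq at 12.98, 6.34, 1.95 and 20.1 CPM in P mice 1 to 4 and 3.15, 176, 3.21 and 134 CPM in P mice 6, 7, 9 and 10. All but 1 were above every 6-week P library of the batch. Against those, all of P mice 6 to 10, 9 members were called higher, against 19.1% of 21377 genes called. Adipoq was higher by 5.51 (SE 1.24, adjusted p = 0.00234), Cfd by 5.99 (SE 1.31), Cidec by 5.80 (SE 1.26), Plin1 by 5.76 (SE 1.28) and Lep by 5.41 (SE 1.12). Pparg was higher here too, by 0.96 (SE 0.20, adjusted p = 0.00128), its 8 libraries reading 36.7 to 55.9 CPM against 15.1 to 35.2 CPM at 6 weeks, without overlap. Tnmd did not pass (−0.80, SE 0.89, adjusted p = 0.575), with values from 0.151 to 8.75 CPM, and the highest Adipoq values (176 and 134 CPM) went with the lowest Tnmd values (0.151 and 0.457 CPM). P mice 1 to 4 have no 6-week library in this batch. Their 6-week libraries, in batch 1, had Adipoq at 38.9, 0.588, 38.9 and 11.6 CPM, above the value at 7 weeks before onset in mice 1 and 3 and below it in mice 2 and 4. Time and mice are thus mixed in this comparison. Of the marker lists, 4 of 5 tested mammary epithelium genes were higher (sum 0.476 to 2.29 CPM at 6 weeks and 0.226 to 310 CPM at 7 weeks before onset), 3 of 5 epidermis genes and 2 of 5 fibroblast genes were lower, and 0 of 6 muscle genes were called (sum 12.7 to 145 CPM and 0.565 to 3078 CPM). Their part in the result was not tested.

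**Figure D4:**
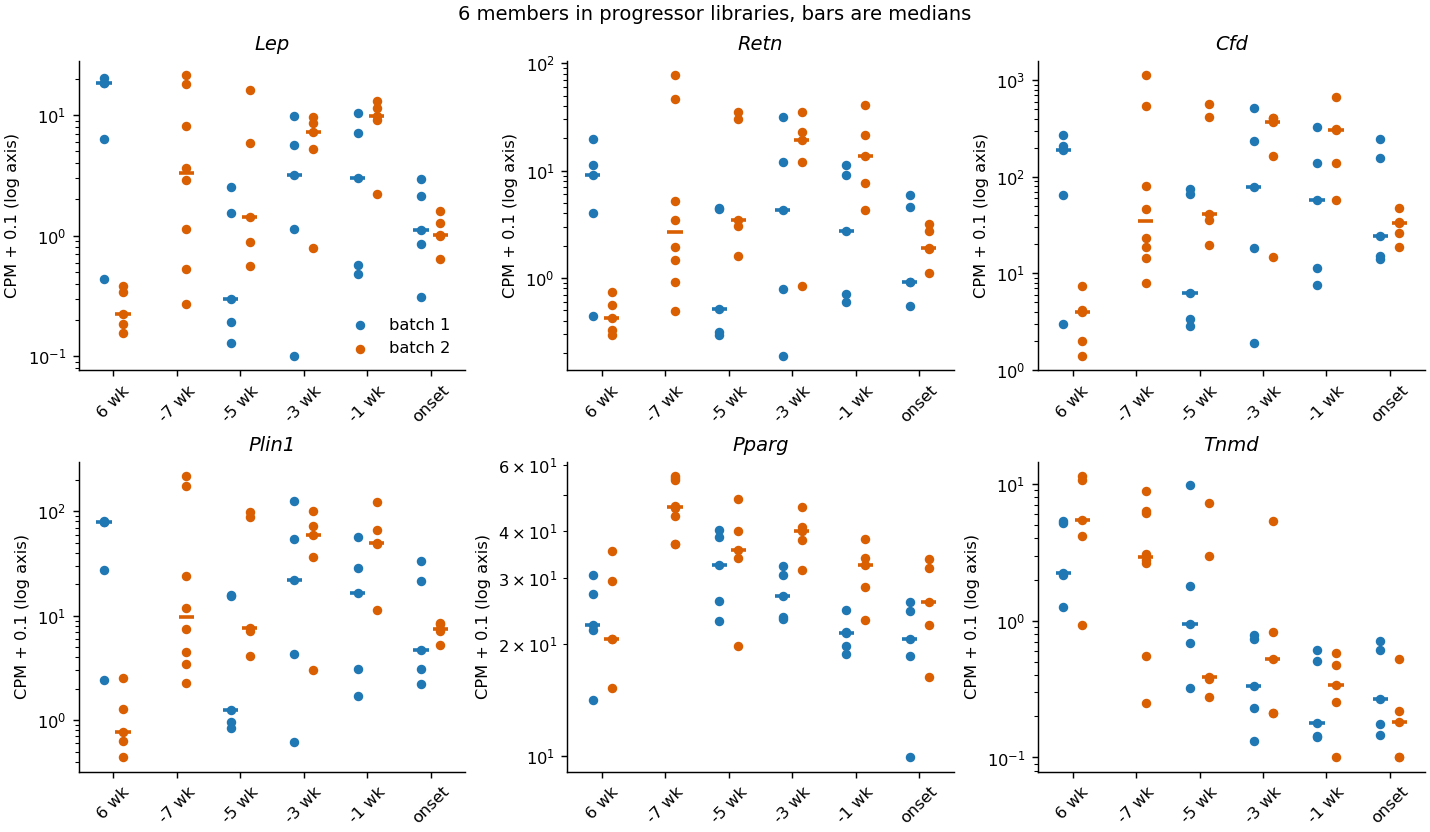
CPM of Lep, Retn, Cfd, Plin1, Pparg and Tnmd in P INs from 6 weeks of age through 7, 5, 3 and 1 weeks before onset to onset, each point a library coloured by batch and each bar the median within a batch. In batch 2 Lep, Retn, Cfd and Plin1 are low at 6 weeks, high before onset and lower at onset, while Tnmd is high at 6 weeks and mostly under 1 CPM from 5 weeks before onset.

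At onset Adipoq, Lep and Cidec were lower than in the 5 to 1 weeks before it in batch 2, and no member passed the test in batch 1. Over both batches every member had a negative fold change, from Retn (−2.09, SE 0.88) to Pparg (−0.44, SE 0.13), but none passed (lowest adjusted p = 0.0906, for Pparg), against 0.282% of 21279 genes. In batch 1 the fold changes ran from −1.01 (Tnmd) to 0.14 (Cfd), 0 of 10 members were called, and edgeR called 0% of 19596 genes (1633 at an unadjusted p under 0.05; DESeq2 called 3). In batch 2 the onset libraries had Adipoq at 3.16 to 6.49 CPM, and all libraries from 5 to 1 weeks before were higher except those of P mouse 9 at 5 weeks (4.25 CPM) and P mouse 8 at 3 weeks (2.29 CPM). Lep was 0.921, 0.543, 0.892, 1.18 and 1.504 CPM at onset, after 11.3, 9.72, 13.1, 2.12 and 8.98 CPM in the same mice 1 week earlier, with no overlap between these 2 times. Cfd was 32.7, 26.1, 47.5, 18.7 and 33.5 CPM at onset after 309, 306, 674, 57.8 and 137 CPM, again without overlap. The fall against the mean of 5 to 1 weeks before passed for Adipoq (−3.22, SE 1.02, adjusted p = 0.0371), Lep (−2.68, SE 0.88, adjusted p = 0.0440) and Cidec (−3.06, SE 1.01, adjusted p = 0.0452), 3 of 10 members against 11.8% of 21377 genes. Retn (−2.99, adjusted p = 0.0624), Cfd (−3.02, adjusted p = 0.0614) and Plin1 (−2.81, adjusted p = 0.0676) did not pass. The call was fragile: with P mouse 6, 7, 8, 9 or 10 left out, 0 of 10 members were called. Without P mouse 3 there were 5, although its only library in this batch, at 7 weeks before onset, is outside the compared times. With the mouse as a block 1 was called, and DESeq2 called 8. The fibroblast marker sum was 4795 to 14691 CPM at onset and 10349 to 29369 CPM before it in this batch, with 4 of 5 genes lower, the 3 called of 4 endothelial genes were lower, and 4 of 4 tested hair follicle keratin or trichohyalin genes were higher (sum 1.94 to 6111 CPM at onset). Their part in the result was not tested.

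No member passed the test between P and NP mice after 6 weeks. With batch as a term, differences ran from −0.19 (SE 0.47) for Tnmd to 1.21 (SE 0.78, adjusted p = 0.597) for Cfd, and 0 of 10 members were called against 0.326% of 22722 genes. The difference for Adipoq was 1.12 (SE 0.74, adjusted p = 0.611). Within batch 2, where the NP INs are those of 14 weeks, the differences for Adipoq and Lep were −1.41 and −1.45, and within batch 1 that for Lep was −0.21, so their signs in the joint fit did not hold there.

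NOD and NOR mice were compared in batch 1 with the counts of each mouse summed, 9 NOD and 5 NOR mice. All 10 differences were negative, lower in NOD, from −0.74 (SE 0.49, adjusted p = 0.407) for Lep to −0.05 (SE 0.10) for Pparg, and 0 passed, against 8.98% of 23387 genes. Adipoq differed by −0.22 (SE 0.55, adjusted p = 0.865) and turned positive without NOR mouse 1 (0.30).

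In NOR mice all 10 members had negative fold changes at later ages against 6 weeks and none passed. Adipoq was 40.6, 6.02, 1.02 and 47.4 CPM at 6 weeks in mice 1, 2, 4 and 5. It was 20.03, 4.02, 2.20, 2.05 and 4.74 CPM at 10 weeks in mice 1 to 5, 77.5, 10.7, 21.7, 44.4 and 36.7 CPM at 14 weeks and 7.34, 0.571, 11.4, 3.82 and 4.48 CPM at 22 weeks, and at 18 weeks it was 30.04, 2.31, 0.744 and 0 CPM in mice 1, 3, 4 and 5. The ages overlapped, and the 14-week INs were the only later ones with every library above 10 CPM. The change was −1.14 for Adipoq (SE 0.76, adjusted p = 0.840) and largest for Tnmd (−2.69, SE 0.53, adjusted p = 0.0635), with 0.0357% of 19628 genes called. Tnmd passed with the mouse as a block (−3.40, adjusted p = 0.0157), in DESeq2 and without NOR mouse 3 (−3.27, adjusted p = 0.0142). The age change in NP mice of batch 1 minus that in NOR was −0.33 for Adipoq (SE 1.44) and −1.11 for Lep (SE 1.38, adjusted p = 0.939). It was called for 0 of 10 members and 0% of 20647 genes by edgeR (1250 at an unadjusted p under 0.05; DESeq2 called 9).

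Tnmd was the member called lower over time in both batches of NP and of P mice. At 6 weeks it was 2.67, 7.37, 6.13 and 3.24 CPM in NP mice and 5.24, 5.13, 2.15, 1.16 and 2.06 CPM in P mice of batch 1. It was 2.44 to 6.84 CPM (median 6.45) in NP mice and 4.07, 11.3, 5.40, 0.827 and 10.6 CPM in P mice of batch 2, and 5.70, 6.06, 2.68 and 2.47 CPM in NOR mice. At 22 weeks it was 0.0951, 0.260, 0.484 and 0.277 CPM in NP and 0.156, 0.0571, 0.456, 0.191 and 0.124 CPM in NOR mice, all below the lowest 6-week value of their group. At onset it was 0.608, 0.167, 0.0747, 0.510 and 0.0470 CPM in batch 1 and 0.425, 0.0815, 0, 0 and 0.120 CPM in batch 2, again below every 6-week P library. Single later INs still had high Tnmd, the highest 4 being those of NOR mouse 3 at 10 weeks (10.6 CPM), P mouse 2 at 5 weeks before onset (9.73 CPM), P mouse 2 at 7 weeks (8.75 CPM) and P mouse 9 at 5 weeks (7.17 CPM). In these 4 INs Adipoq was 2.20, 0.185, 6.34 and 4.25 CPM.

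In NOD mice the adipocyte progenitor list (7 genes) fell with Tnmd. In NOR mice 0 of the 7 were called between later ages and 6 weeks (median −0.19), against 0.0357% of all genes. Tnmd there differed by −2.69 without passing. The NOR progenitor sum had a median of 432 CPM at 6 weeks, 254 CPM at 10 weeks, 345 CPM at 14 weeks, 407 CPM at 18 weeks and 685 CPM at 22 weeks. The age change in NP mice of batch 1 minus that in NOR was called for 0 of the 7 (median −0.68), against 0% of 20647 genes. All 7 genes were lower at later times in NP mice (median −1.15 against −0.03 for all genes) and in P mice (median −1.44 against 0.01), where 24.1% and 39.5% of all genes were called. Dlk1, the preadipocyte factor that marks undifferentiated progenitors, fell by 3.33 (SE 0.34, adjusted p = 4.3e-07) in NP and by 4.25 (SE 0.43, adjusted p = 6.2e-11) in P mice. Ebf2, a regulator of progenitor commitment, fell by 1.15 (SE 0.21) and 1.31 (SE 0.24), Pdgfra fell by 0.55 (SE 0.11) in NP mice and Zfp423 by 1.10 (SE 0.21) in P mice. Within batches, 3 and 6 of the 7 were lower in NP mice of batch 1 and batch 2, against 13.8% and 34.1% of all genes called. In P mice 5 and 7 were lower, against 27.1% and 31.2%, and none was higher in any of these fits. At onset in batch 2 all 7 were lower than at 5 to 1 weeks before, against 11.8% of all genes called, led by Cd34 (−2.25, SE 0.36) and Ebf2 (−1.50, SE 0.24). The fibroblast list shares Pdgfra with this one, and its 5 genes were lower at later times in NP and P mice in the joint fits (medians −0.90 and −1.25), against the same 24.1% and 39.5% of all genes. The fibroblast sum went from 31692 to 59712 CPM in NOD INs at 6 weeks to 10349 to 29369 CPM in P INs at 5 to 1 weeks before onset in batch 2, and its part in the fall of Tnmd and of the progenitor genes was not tested.

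Genes that work beside the members moved with them in batch 2. Of 14 genes of fatty acid uptake and triglyceride synthesis, 12 were higher at 14 than at 6 weeks in NP mice and 0 lower (median 1.42 against 0.01 for all genes, 34.1% of which were called). The leading ones were Acsl1, which activates fatty acids to acyl-CoA (2.03, SE 0.27), Dgat1 (1.15, SE 0.16) and Dgat2 (4.47, SE 0.65), the enzymes of the last step of triglyceride synthesis. In P mice of batch 2, 8 were higher and 0 lower, where 31.2% of all genes were called, led by Pck1 (5.17, SE 1.30), Acsl1 (1.44, SE 0.41) and Lpin1 (0.43, SE 0.13). In batch 1 only Bscl2, the seipin gene, was higher in NP mice (0.30, SE 0.09, adjusted p = 0.0385). In P mice of batch 1, Cd36, a fatty acid transporter that macrophages also carry, and Lpl, lipoprotein lipase, were higher (0.72, SE 0.16, and 0.43, SE 0.14), while the glycerol phosphate dehydrogenase Gpd1 and the phosphatidate phosphatase Lpin1 were lower (−1.89, SE 0.63, and −0.59, SE 0.22). Fitted over both batches, 3 were higher in NP mice (Bscl2, 0.27, Dgat1, 0.58, and Lpl, 0.44) and 4 in P mice, led by Cd36 (0.57, SE 0.12). Against 24.1% and 39.5% of all genes called in the joint fits, 13.8% in NP and 27.1% in P mice of batch 1, the list's counts outside batch 2 (3 and 4 of 14, and 1 and 4 of 14) were near or below the background.

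Of 12 partners of the lipid droplet and of lipolysis, 7 of 11 tested were higher and 2 lower in NP mice of batch 2, against 34.1% of all genes called. Those higher were led by the β3-adrenergic receptor Adrb3 (7.56, SE 0.96), the phosphodiesterase Pde3b (0.78, SE 0.11) and the droplet protein Plin4 (4.85, SE 0.72). The 2 that were lower encode caveolar proteins, Cavin1 (−0.72, SE 0.15) and Cav1 (−0.64, SE 0.18), which endothelial cells and fibroblasts also make. In P mice of batch 2, where 31.2% of all genes were called, 4 were higher, led by Plin4 (4.15, SE 0.97), Adrb3 (5.35, SE 1.41) and Pde3b (0.78, SE 0.22), and Cavin1 (−1.07, SE 0.11) and Cav1 (−0.88, SE 0.12) were lower. In P mice of batch 1, 3 were lower, Cavin1 (−0.98, SE 0.14), Cav1 (−0.51, SE 0.15) and G0s2, an inhibitor of Pnpla2 (−1.32, SE 0.47), and none was higher, a count near the 27.1% of all genes called. At onset in batch 2, Cavin1 (−0.70, SE 0.13) and G0s2 (−2.04, SE 0.64) were lower, 2 of 12 against 11.8% of all genes.

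Of 18 genes of adipocyte differentiation and identity, 12 of 17 tested were higher and 1 lower in NP mice of batch 2, against 34.1% of all genes called. The leading ones were Lgals12, an adipocyte galectin (5.81, SE 0.81), the FGF21 coreceptor Klb (4.82, SE 0.70) and Acvr1c (5.46, SE 0.80), and the one that fell was Ebf1 (−0.93, SE 0.13). In P mice of batch 2, where 31.2% of all genes were called, 9 were higher, led by Cebpa, the transcription factor that works with PPARγ (0.67, SE 0.12), Car3 (4.11, SE 1.05) and the insulin receptor Insr (0.34, SE 0.09), and Ebf1 (−1.20, SE 0.12) and Cebpd (−0.47, SE 0.16) were lower. In P mice of batch 1, 4 were lower and 0 higher, a count below the 27.1% of all genes called, among them Irs1 (−1.15, SE 0.26), Ebf1 (−0.83, SE 0.21) and Cebpd (−0.56, SE 0.16). At 7 weeks before onset, where 19.1% of all genes were called, 10 were higher and Ebf1 lower, led by Nr1h3, the oxysterol receptor LXRα (0.92, SE 0.19), Car3 (5.16, SE 1.15) and Acvr1c (5.46, SE 1.25). At onset in batch 2, 6 were lower than before it, led by Ebf1 (−1.01, SE 0.15), Irs1 (−1.30, SE 0.28) and Klf15 (−1.58, SE 0.42), against 11.8% of all genes called.

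Of the receptors of the adipokines and other adipokine genes, 10 of 12 were tested. Within batch 2, 3 were higher and 2 lower in NP mice and 0 higher and 3 lower in P mice, against 34.1% and 31.2% of all genes called. In NP mice the joint fit gave 2 higher, the resistin-like gene Retnla (1.49, SE 0.55), which alternatively activated macrophages express, and the adiponectin receptor Adipor1 (0.14, SE 0.05), and 1 lower, the leptin receptor Lepr (−1.03, SE 0.37). In P mice 3 were lower and 0 higher: the adiponectin-binding cadherin Cdh13 (−1.27, SE 0.19), the peptide hormone gene Apln (−0.72, SE 0.15) and Lepr (−0.69, SE 0.29, adjusted p = 0.0490). These joint counts, 3 of 10 each, stand against 24.1% and 39.5% of all genes. At onset in batch 2, where 11.8% of all genes were called, complement C3 (−1.19, SE 0.29), Cdh13 (−0.95, SE 0.26) and Retnla (−1.74, SE 0.57) were lower. Of 7 brown or beige adipocyte genes, Cox7a1 (1.32, SE 0.26) and Cox8b (4.62, SE 0.96) were higher in NP mice of batch 2, where 34.1% of all genes were called. Both encode cytochrome c oxidase subunits that muscle also uses. Over all libraries the brown or beige sum had a correlation of −0.271 with Adipoq in batch 1 and −0.306 in batch 2. The sum does not describe its genes singly. Of those compared with Adipoq, only Dio2 was negative (−0.352 and −0.350). Cidea (0.530 and 0.762), Cox8b (0.522 and 0.780), Cox7a1 (0.543 and 0.284), Prdm16 (0.357 and 0.347) and Elovl3 (0.200 and 0.353) were positive.

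The summed levels of other cell types tracked Adipoq to differing degrees. The mammary epithelium sum had a correlation with Adipoq of 0.417 over the 74 batch 1 libraries and 0.848 over the 46 batch 2 libraries, and the skeletal muscle sum of 0.324 and 0.639. The endothelial sum gave 0.430 and 0.195 and the epidermis sum 0.098 and 0.475. The fibroblast sum gave −0.158 and −0.627 and the macrophage sum −0.132 and −0.246. The hair follicle sum gave −0.192 and 0.057. These are descriptions over libraries that share mice and groups.

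The ratio of Lep to Adipoq differed between sets of INs. In the libraries with at least 100 Adipoq counts, NOR INs had 26.9 to 101 Lep counts per 100 Adipoq counts (median 50.0, 17 libraries), with medians of 50.1 at 6 weeks (3 libraries) and 49.6 later (14 libraries). The later NOR median pools unlike ages. The values were 54.3 to 101 at 10 weeks, 38.1 to 79.3 at 14 weeks, 42.2 at 18 weeks and 26.9 to 50.0 at 22 weeks. NOD INs of batch 1 had 45.2 to 83.1 at 6 weeks (median 52.0, 7 libraries) and 10.8 to 69.3 later (median 27.8, 20 libraries, of which 5 are day-labelled NP INs; median 24.5 over the other 15). Later NOD INs of batch 2 had 5.17 to 56.4 (median 15.95, 31 libraries), and no 6-week library of that batch had enough Adipoq counts. In mice of batch 1 with both ages, the ratio was lower later in 6 of 7 NOD mice, with a median of 52.0 at 6 weeks and 32.2 later. The exception was P mouse 3, which went from 47.7 to 59.0, and the largest drop was that of P mouse 5, from 83.1 to 15.3. In NOR mice it was lower later in 2 of 3, with medians of 50.1 and 49.2. In the same 7 NOD mice, Cidec went from a median of 131 to 115 per 100 Adipoq counts and was also lower later in 6, Plin1 from 204 to 195 and lower in 4, Retn from 42.3 to 47.9 and lower in 1, and Cfd from 671 to 865 and lower in 1. Lep was not the only gene lower in batch 2, where the later NOD medians were 510 for Cfd, 122 for Plin1 and 94.0 for Cidec, against 978, 192 and 116 in batch 1. No test was made of these ratios, and the change in NOD was not tested against that in NOR.

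**Figure D5:**
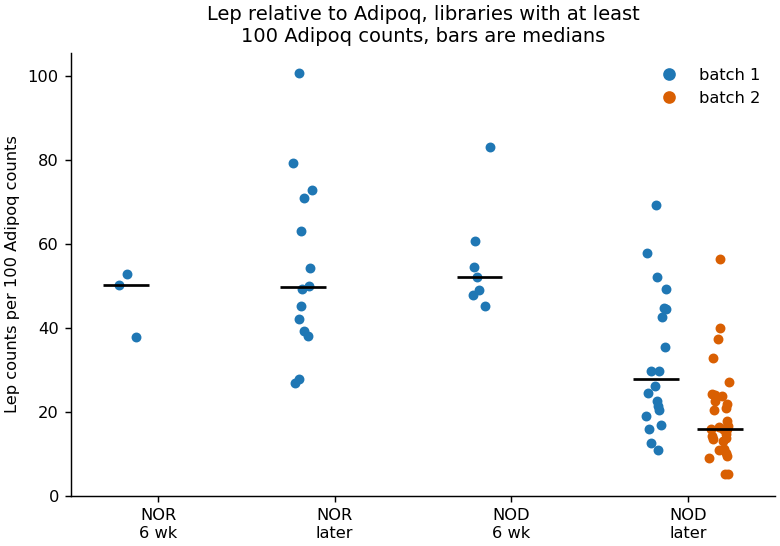
Lep counts per 100 Adipoq counts in libraries with at least 100 Adipoq counts, for NOR at 6 weeks, NOR later, NOD at 6 weeks and NOD later, coloured by batch, with bars at the median. The NOR medians are 50.1 at 6 weeks and 49.6 later, the later set pooling 54.3 to 101 at 10 weeks with 26.9 to 50.0 at 22 weeks. Later NOD libraries, which include the day-labelled NP INs, lie mostly below the 6-week NOD ones.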

How the data were processed

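Bulk RNA-seq of scaffold tissue (total RNA, ribosomal RNA depleted) was analysed. The authors deposited 1 table of expected counts per batch, gene-level estimates given as whole numbers and not normalized. The submitters' processing notes name cutadapt, FastQC, STAR, RSEM, MultiQC and GRCm38, versions not given in the sources used here; RSEM shares out ambiguous reads, so counts are estimates. The 5 and 4 reporter rows (1 and 0 counts) were left out. Coordinates are from GENCODE M21.

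All genes were fitted in edgeR 4.0.16 under R 4.3.3 by glmQLFTest after filterByExpr and TMM, a call being a Benjamini-Hochberg adjusted p under 0.05. Comparisons spanning the batches had a batch term, and DESeq2 1.42.0 was an alternative. All 10 members passed the filter in every comparison. CPM values were computed per batch, and log2 CPM for correlations used a prior count of 2. The fits within a batch and the test of time by batch were chosen after seeing the data. Replicates are libraries of separate mice, or of the same mouse at other ages. Biopsies were paired by the labelled mouse number; over 2000 genes, deviations from group means had a mean correlation within a mouse of 0.0150 in NOR, 0.00866 in NP and −0.00213 in P, and between mice of −0.00105, −0.00298 and 0.00129. All 239 replicate pairs differed by more than sampling noise (chi-square over its degrees of freedom at least 12.0). The members and lists were chosen with earlier results of these data known. All members were to be named, with up to 3 genes with the smallest p per list and direction and the 5 genes most like Adipoq; some list genes are left out of the text. The edgeR test was tested on simulated data. Filter, scaling, batch term, mouse block and single mice or libraries were varied.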

Additional observations from a re-analysis of the deposited data

Results flagged for a closer look

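Of 230 sets of 4 to 8 libraries (1 member in 1 group and batch), 27 had a highest or lowest library set apart from the rest by Dixon's criterion at 95%, which chance alone gives in about 1 of 20; because most members vary together, 1 library can account for several. NP mouse 3 at 10 weeks stood above the other 3 libraries in Adipoq (37.0 CPM), Retn (15.97 CPM), Cfd (297 CPM), Plin1 (62.0 CPM), Cidec (40.1 CPM) and Lipe (61.1 CPM). NP mouse 5 at 14 weeks stood below the other 5 in Adipoq (0.199 CPM), Cfd (0.171 CPM), Plin1 (0.142 CPM), Lipe (9.29 CPM) and Pnpla2 (55.8 CPM) and had 0 CPM of Lep, Retn and Cidec. P mouse 8 at 3 weeks before onset stood below the other 4 in Adipoq (2.29 CPM), Lep (0.698 CPM), Retn (0.746 CPM), Cfd (14.7 CPM), Plin1 (2.91 CPM), Cidec (2.29 CPM) and Pnpla2 (76.2 CPM). At 6 weeks, NP mouse 2 was low in Retn (0.595 CPM) and Cfd (8.39 CPM), NP mouse 6 in Adipoq (0.0848 CPM) and NP mouse 9 in Tnmd (2.44 CPM). P mouse 9 was low in Lep 1 week before onset (2.12 CPM), and P mouse 7 was high in Lipe at onset (27.6 CPM).

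The change of P mice from 6 weeks to the later times differed between batches in 8 members, by edgeR's test of the difference. On the log2 scale, batch 2 minus batch 1, it was 6.20 for Adipoq, 7.26 for Lep, 5.93 for Retn, 6.19 for Cfd, 6.61 for Plin1, 6.71 for Cidec, 3.10 for Lipe and 1.56 for Pnpla2. Batch, mice and the instrument cannot be told apart.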

How the results depend on the processing

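Alternatives for Adipoq, Lep, Pparg and Tnmd kept the direction and side of the threshold in 297 of 332 cases, with 2 calls lost, 13 gained and 20 turned in sign; for the other 6 members it was 425 of 498, with 2, 16 and 55. The cause of these differences was not tested. For NOD against NOR, signs turned for Lep at 6 weeks only (0.035), Adipoq with NP mice only (0.018) and Pparg with each sample entered separately (0.024). For P against NP at 6 weeks they turned without a batch term for Adipoq (0.39) and Lep (0.49), in batch 1 only for Lep (0.074) and in batch 2 only for Tnmd (0.17). In NOR over age, 1 member was called under DESeq2, library size only and the replicate block in place of 0. For Adipoq in NP over age, the value was −0.17 with library size only, −0.64 with the replicate block, −0.029 without a batch term, −1.48 in batch 1 only and −0.41 without the library of lowest depth, and Lep was 4.69 in batch 2 only, where 10 members were called. In P over time, 2 members were called in batch 1 only and 9 in batch 2 only, with Adipoq at −1.43 in batch 1 and Lep at 4.64 in batch 2. At onset, 1 member (Pparg) was called by DESeq2 and 3 in batch 2 only. For P against NP after 6 weeks, Lep was −0.21 and Tnmd 0.077 in batch 1 only, and Adipoq −1.41 and Lep −1.45 in batch 2 only. Within batch 1 of NP, Pparg was −0.12 with library size only. Within batch 2, the onset call of 3 members became 8 under DESeq2, 1 without the filter and 1 with the replicate block. Paired fits with the mouse as a block changed no other count of called members. Leaving out each mouse in turn, the count of members called ran from 0 to 1 in NOR over age, 1 to 2 in P over time, 1 to 2 in NP of batch 1, 1 to 3 and 8 to 10 in P of batch 1 and batch 2, 0 to 5 at onset in batch 2 and 8 to 9 at 7 weeks before onset. The fold change of Adipoq then ran from −0.44 to 0.30 for NOD against NOR, −0.76 to 0.50 in NP over age, −0.18 to 0.92 in P over time, −1.25 to 0.36 for the NP minus NOR age change and −0.64 to 0.72 at onset in batch 1, and that of Pparg from −0.24 to 0.069 in NOR over age and −0.023 to 0.17 in P of batch 1. With library size only, the median over all genes shifted by −0.15 in NOR over age, −0.19 in NP over age and 0.12 for P against NP after 6 weeks. Low counts limit Lep, Retn and Tnmd, which had 0 counts in some libraries.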

Other observations

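The 6 NP INs labelled only by days after implantation, all in batch 1, held adipocyte transcripts too. Adipoq was 31.5 and 23.9 CPM at 31 days, 49.9 and 7.85 CPM at 38 days and 15.1 and 2.19 CPM at 108 days. Lep was 18.2 and 7.10 CPM, 22.3 and 1.68 CPM, and 4.46 and 0.386 CPM at the same times. Tnmd was 0.397 and 1.49 CPM at 31 days, 0.114 and 0.6249 CPM at 38 days and 0.127 and 0.0857 CPM at 108 days, and Pparg lay between 23.4 and 31.7 CPM in all 6. They are not replicates of an age group, and no test was made.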
